A study of Mus musculus with 6 samples.

Results

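The genes described here belong to the pathways that SV40 large T antigen acts on. These are p53 and its circuit (*Trp53*, *Mdm2*, *Cdkn1a* and *Cdkn2a*), the retinoblastoma or pocket protein family (*Rb1*, *Rbl1* and *Rbl2*) and the activator E2F transcription factors (*E2f1*, *E2f2* and *E2f3*). They are 10 of the 47069 genes in the count table, they were taken by name, and all 10 passed the filter on low counts. LβT2 is a mouse gonadotrope cell line, derived from a pituitary tumor of a transgenic mouse in which T antigen was driven by the regulatory region of the LHβ gene. All libraries came from LβT2 cells at passage 14 that were given 2 nM gonadotropin-releasing hormone (GnRH) for 40 min. Cells of 3 libraries, called fresh, were lysed directly, and cells of the other 3 were kept at 4°C in RNA-Best, an RNA stabilization reagent, over 4 days or longer before lysis. Every library therefore carries the T antigen background and the hormone treatment, and the comparison is between RNA-Best-preserved and fresh cells. Neither T antigen nor GnRH can be examined by a contrast in this design, and viral transcripts were not analysed here.

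As background, large T antigen immortalizes cells by binding p53 and the pocket proteins. Bound p53 no longer switches on its target genes, among them the cell cycle inhibitor *Cdkn1a* and its own antagonist *Mdm2*. Pocket proteins normally hold E2F factors on the promoters of S phase genes, and T antigen releases them. These interactions act on proteins, so mRNA levels do not measure them.

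The fresh libraries held 14477304 to 47438746 counts and the RNA-Best libraries 4909418 to 11999363, so that every fresh library was deeper. Levels are given as CPM, the counts of a gene scaled to the same total in every library. The quasi-likelihood test of edgeR was fitted to the 14736 genes past the filter together, with Benjamini-Hochberg adjustment over them. Of these genes 50.8% were called at an adjusted p under 0.05, 26.0% higher and 24.8% lower in RNA-Best. Whether separate cultures were used for the libraries is not given in the sources used here, and the spread behind each p may be technical. Of 8 gonadotrope markers 7 passed the filter, while *Fshb* had 0 counts in every library, which allows up to 0.611 CPM in the shallowest. Among the 7, *Gnrhr*, the GnRH receptor, was higher in RNA-Best (log2 fold change 0.43) and 4 were lower, among them *Cga*, the common hormone alpha subunit (-0.36), and *Pitx1* (-0.22). The summed level of the gonadotrope markers was 3724 to 3757 CPM in fresh and 3179.8 to 3266 CPM in RNA-Best libraries, with no overlap. Of 14 markers of other pituitary, stromal, blood and endothelial cells, *Prl*, *Sox2*, *Col3a1*, *Dcn* and *Ptprc*, 5 in all, had 0 counts in every library, and *Gh*, *Pomc*, *Col1a1*, *Pdgfra*, *Hba-a1* and *Hbb-bs* had 1 to 14 counts over all libraries. The thyrotrope hormone gene *Tshb* was detected at 0.765 to 2.28 CPM and was higher in RNA-Best (log2 fold change 0.91, edgeR adjusted p = 0.0035). The summed level of these 14 genes was 191 to 193 CPM in fresh and 197 to 209 CPM in RNA-Best libraries, nearly all of it from the endothelial genes *Cdh5* (147 to 169 CPM) and *Pecam1* (37.7 to 43.1 CPM). These went opposite ways, with *Cdh5* higher (log2 fold change 0.12, edgeR adjusted p = 0.00228) and *Pecam1* lower in RNA-Best (-0.15, edgeR adjusted p = 0.015). The part of either marker list in the results was not tested.

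Promoter sequences were examined because p53 and E2F bind DNA at known motifs, and several of these genes are themselves p53 or E2F targets. RefSeq windows on GRCm38.p6, from 250 bases before to 50 bases after an annotated start, were given for 9 of the genes, 13 windows in all. In both strands the E2F octamers TTTCGCGC, TTTGGCGC, TTTCCCGC and TTTGCCGC were searched, and 2.26% of all 32851 windows held at least 1 of them. The p53 response element was searched as a pair of abutting half-sites over 20 bases with intact cores and at most 1 mismatch outside them, which 0.0548% of all windows held. The sequences below are those with a match, written 5′ to 3′ on the strand of the gene with the match in capitals, and positions count from the annotated start.
*Cdkn1a*, chr17:29090898-29090977, + strand: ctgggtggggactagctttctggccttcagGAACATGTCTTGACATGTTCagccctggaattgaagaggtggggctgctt
*Rbl1*, chr2:157204515-157204582, − strand: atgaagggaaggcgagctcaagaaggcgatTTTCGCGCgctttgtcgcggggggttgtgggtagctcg
*Cdkn2a*, chr4:89294681-89294748, − strand: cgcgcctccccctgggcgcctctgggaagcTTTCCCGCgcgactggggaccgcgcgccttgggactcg
*E2f3*, chr13:29986037-29986104, − strand: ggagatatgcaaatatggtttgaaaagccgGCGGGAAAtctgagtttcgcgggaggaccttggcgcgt
*E2f2*, chr4:136172294-136172323, + strand: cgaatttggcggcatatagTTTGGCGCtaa

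In *Cdkn1a* the paired p53 half-sites began at position -51 with 1 mismatch. The E2F octamers began at position -18 in *Rbl1*, at -11 in *E2f3*, at -99 in *Cdkn2a* and at 40, downstream of the RefSeq start, in *E2f2*. The capitals in *E2f3* are TTTCCCGC read from the other strand. *Cdkn1a*, *Cdkn2a*, *E2f2* and *E2f3* each had windows at 2 annotated starts, and in each the match lay in the window of the upstream start and the other window held none. The RefSeq start of *E2f1* lay 466 bases inside the gene as GENCODE annotates it, and its window, like those of *Trp53*, *Mdm2* and *Rbl2*, held no match to these letters. A match describes the letters only, and binding was not measured.

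Levels were compared between genes after division by exonic length, with the exons of all annotated transcripts merged. The order of genes depends on this length. From highest to lowest the means over all libraries were 91.4 CPM per kb for *Cdkn2a*, 54.7 for *E2f1*, 33.0 for *Cdkn1a*, 26.4 for *Rbl1*, 26.2 for *Trp53*, 18.4 for *Rb1*, 15.7 for *E2f2*, 10.3 for *Mdm2*, 4.39 for *Rbl2* and 3.80 for *E2f3*. *Cdkn2a* thus stood above *E2f1*, and *E2f1* above *Cdkn1a*, with no overlap between their ranges. The order of *Rbl1* and *Trp53* turned between the groups. *Trp53* was the higher of these in all 3 fresh libraries and *Rbl1* in all 3 RNA-Best libraries, so the order of their means over all libraries is that of the RNA-Best group alone. The ranges over libraries of *Cdkn1a* and *Rbl1*, of *Rb1* and *E2f2* and of *Rbl2* and *E2f3* also overlapped, although *Rb1* exceeded *E2f2* and *Rbl2* exceeded *E2f3* in 6 of 6 libraries. The CPM of all 10 genes summed to 944 to 959 in fresh and 948 to 966 in RNA-Best libraries, and these ranges overlap.

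Of the 10 genes, 8 were called between RNA-Best and fresh cells, against 50.8% of all tested genes. The pocket protein genes *Rb1*, *Rbl1* and *Rbl2* and the p53 antagonist *Mdm2* were higher in RNA-Best, by 13.4% to 25.7%. *Trp53*, *Cdkn1a*, *Cdkn2a* and *E2f1* were lower, by fitted folds of 0.806 to 0.883. *E2f2* and *E2f3* did not pass. With voom in limma 8 were called as well, 4 in each direction, against 50.6% of all genes, 26.4% higher and 24.3% lower. In 9 genes the CPM of the groups did not overlap, 5 with RNA-Best higher and 4 with RNA-Best lower. Groups did not overlap in 57.5% of all tested genes, 30.4% with RNA-Best higher and 27.1% with RNA-Best lower.

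**Figure D1:**
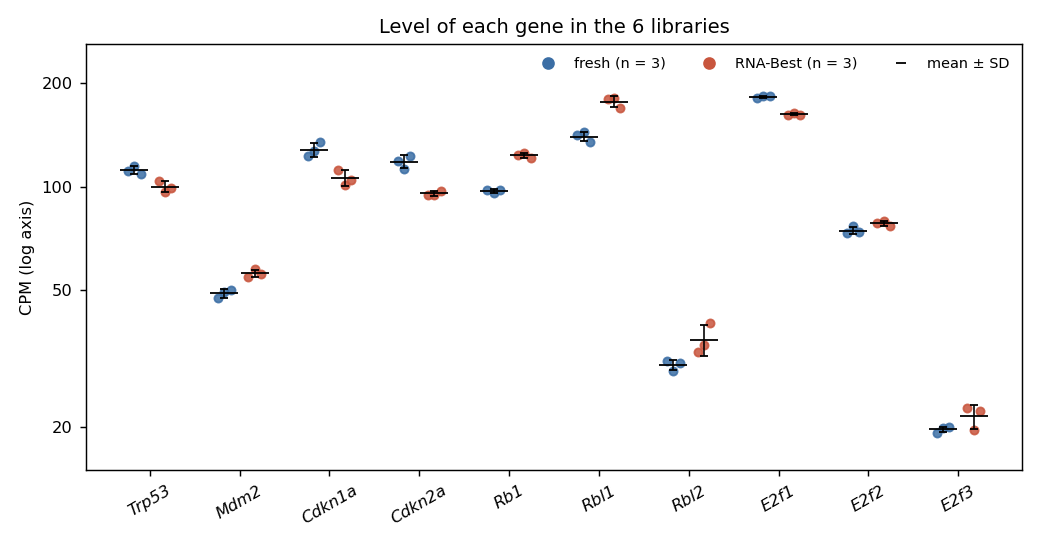
CPM (log axis) of each gene in the 3 fresh and 3 RNA-Best libraries, with the mean and SD of each group as black lines. The groups are separate in 9 genes and overlap in E2f3, where RNA-Best replicate 2 lies at 19.6 CPM among the fresh libraries.

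*Trp53* encodes the p53 tumor suppressor, a transcription factor activated by DNA damage and oncogenic stress. It lies on chromosome 11 (GRCm38, 69580359 to 69591873, + strand) and has 4045 exonic bases. It had 111, 115 and 109 CPM in the fresh and 104, 96.8 and 99.1 CPM in the RNA-Best libraries. All RNA-Best values were below all fresh values, and RNA-Best replicate 1 was nearest to them. The difference, RNA-Best minus fresh, came to a log2 fold change of -0.18 (standard error, SE, 0.04, edgeR adjusted p = 0.000157). Its deposited counts include parts of reads, so some may be shared with a related sequence.

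*Mdm2* encodes the ubiquitin ligase that marks p53 for degradation and is itself a p53 target. It lies on chromosome 10 (117688875 to 117710758, − strand). Its level was 47.4, 49.5 and 50.1 CPM in fresh and 54.8, 57.6 and 55.8 CPM in RNA-Best libraries. It moved opposite to *Trp53*, with a log2 fold change of 0.18 (SE 0.05, edgeR adjusted p = 0.00151). The spread among RNA-Best libraries, 2.54% of the mean, was below the 4.87% that counting alone would give. *Mdm2* did not pass after thinning all libraries to 4909268 counts (0.17, adjusted p = 0.0658 from edgeR).

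*Cdkn1a* encodes p21, the inhibitor of cyclin-dependent kinases through which p53 arrests the cell cycle, and its promoter held the p53 half-sites printed above. The gene lies on chromosome 17 (29090976 to 29100727, + strand) and shares 273 exonic bases with an unconfirmed transcript on the opposite strand. It had 123, 127 and 135 CPM in fresh and 112, 101 and 105 CPM in RNA-Best libraries. Fresh replicate 3 was the highest and RNA-Best replicate 2 the lowest of the 6. The log2 fold change was -0.27 (SE 0.04, edgeR adjusted p = 5.83e-07). In fresh libraries the SD was 4.68% of the mean, against 1.71% from counting.

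*Cdkn2a* encodes 2 unrelated proteins from overlapping reading frames, p16INK4a, which inhibits the kinases that inactivate Rb, and p19ARF, which inhibits Mdm2. Counts per gene cannot tell these transcripts apart. The gene lies on chromosome 4 (89274471 to 89294653, − strand), and with 1172 exonic bases it was the shortest of the 10 genes. It had 119, 113 and 123 CPM in fresh and 94.8, 94.9 and 97.3 CPM in RNA-Best libraries. The gap between the groups was wider than the range within either. Its log2 fold change of -0.31 was the most negative of the 10 (SE 0.04, edgeR adjusted p = 3.12e-08). With the corrections for length or GC content described below, or without RNA-Best replicate 1, *Cdkn1a* was the more negative.

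*Rb1* encodes the retinoblastoma protein, the pocket protein that restrains activator E2Fs. It lies on chromosome 14 (73183673 to 73325822, − strand). It had 98.1, 95.8 and 97.6 CPM in fresh and 124, 125 and 121 CPM in RNA-Best libraries. The values within a group lay within a few CPM of each other, and the groups were far apart. Its log2 fold change of 0.33 was the largest of the 10 (SE 0.04, edgeR adjusted p = 1.16e-09). The rank turned with single libraries left out. Without fresh replicate 2 *Rb1* was 0.32 and *Rbl1* 0.33, and without RNA-Best replicate 1 *Rb1* was 0.32 and *Rbl2* 0.33. *Rb1* shares 488 exonic bases with *Rcbtb2* and 408 with *Lpar6*, both on the opposite strand, and the strand setting of the counting is not given in the sources used here, so part of its reads could belong to these genes.

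*Rbl1* encodes p107, a pocket protein whose transcription is itself under E2F control, and its promoter held an E2F octamer. It lies on chromosome 2 (157145893 to 157204534, − strand). Its level was 141, 144 and 135 CPM in fresh and 180.1, 181 and 169 CPM in RNA-Best libraries. Replicate 3 was the lowest in each group, and the groups did not overlap. The log2 fold change was 0.31 (SE 0.03, edgeR adjusted p = 2.42e-09).

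*Rbl2* encodes p130, the pocket protein of quiescent cells and of the DREAM repressor complex. It lies on chromosome 8 (91070057 to 91123844, + strand) and shares 892 exonic bases with *Gm45464* and 693 with *Aktip*, both on the opposite strand. It had 31.1, 29.2 and 30.7 CPM in fresh and 33.1, 34.8 and 40.1 CPM in RNA-Best libraries, with RNA-Best replicate 3 above the others. The log2 fold change was 0.26 (SE 0.06, edgeR adjusted p = 0.00061). Without RNA-Best replicate 3 it was 0.15 (edgeR adjusted p = 0.119), so the call rests on that library. The SD of the RNA-Best libraries was 10.2% of the mean, against 6.16% from counting 171 to 481 reads. After thinning it was 0.22 (edgeR adjusted p = 0.066).

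*E2f1* encodes the activator E2F that drives entry into S phase. It lies on chromosome 2 (154559407 to 154569892, − strand). It had 181, 183 and 184 CPM in fresh and 162, 164 and 162 CPM in RNA-Best libraries. The SDs of fresh and RNA-Best libraries were 0.793% and 0.717% of the mean, below the 1.45% and 2.87% that counting alone would give. The log2 fold change was -0.18 (SE 0.03, edgeR adjusted p = 8.98e-06). Its counts include parts of reads, as do those of *Rb1*.

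*E2f2* and *E2f3* encode the other activator E2Fs. *E2f2* lies on chromosome 4 (136172394 to 136196057, + strand) and had 73.4, 76.7 and 73.7 CPM in fresh and 78.5, 79.6 and 76.8 CPM in RNA-Best libraries. The highest fresh value and the lowest RNA-Best value were nearly the same, and RNA-Best exceeded fresh by a log2 fold change of 0.05 (SE 0.04, edgeR adjusted p = 0.353). *E2f3* lies on chromosome 13 (29906575 to 29986063, − strand) and had 19.3, 19.9 and 20 CPM in fresh and 22.7, 19.6 and 22.3 CPM in RNA-Best libraries. It was the lowest of the 10 genes, with 96 to 268 reads per RNA-Best library, and its groups overlapped. The log2 fold change of 0.14 did not pass (SE 0.07, edgeR adjusted p = 0.0904). Leaving out RNA-Best replicate 2 gave 0.18 (edgeR adjusted p = 0.0479).

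The fold changes of the 10 genes followed their exonic length. The shorter genes, *Cdkn2a*, *E2f1*, *Cdkn1a* and *Trp53*, with 1172 to 4045 bases, were all lower in RNA-Best. The longer 6, with 4882 (*E2f2*) to 7558 bases (*Rbl2*), all had log2 fold changes above 0. Spearman's rho between log2 fold change and exonic length was 0.94 across the 10 genes and 0.52 across 14689 tested genes. With GC content it was -0.93 across the 10 genes and -0.32 across all. Length and GC content were themselves related among the 10 genes (rho = -0.87), so the data of these genes alone cannot tell them apart. These are descriptions across genes of the same 6 libraries.

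**Figure D2:**
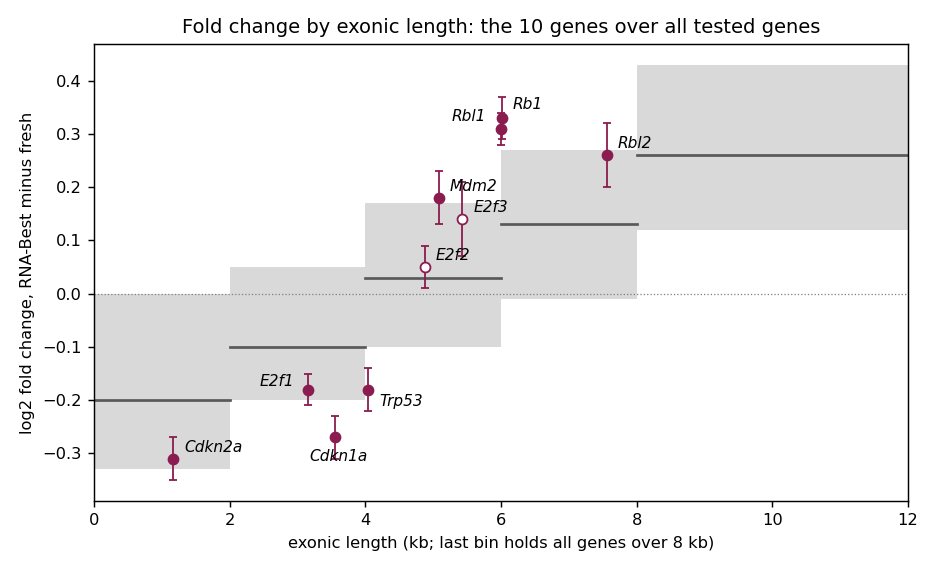
Log2 fold change (RNA-Best minus fresh) against exonic length in kb. Points are the 10 genes with their SE, filled where the adjusted p was under 0.05, and gray blocks give the quartiles and lines the medians of all tested genes in 5 length bins. The median of all genes climbs from -0.20 in the shortest to 0.26 in the longest bin. Rb1, Rbl1, Cdkn1a and Trp53 lie outside the quartiles of their bin, and Mdm2 at 0.18 lies just above the upper quartile of its bin, 0.17.

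The same trend ran through the whole table. In genes of up to 2000 bases 6.92% were called higher and 40.6% lower, and over 8000 bases 69.4% were called higher and 3.27% lower. The comparison was also fitted in edgeR with offsets for length, for GC content and for both. In these fits the median log2 fold change over all tested genes was -0.0397, -0.0288 and -0.0402, against -0.0074 without offsets. With the length offset 7 of the 10 genes were called, against 40.8% of all tested genes, 15.6% higher and 25.2% lower. In that fit *Trp53* and *Cdkn1a* hardly moved, to -0.19 and -0.26, while *Cdkn2a* shrank from -0.31 to -0.19. *E2f1* came to -0.15, and *Rb1* and *Rbl1* came to 0.22 and 0.20. *Rbl2* no longer passed, at 0.09 (edgeR adjusted p = 0.243). With the GC offset 8 were called, against 48.1% of all, 21.9% higher and 26.2% lower. There *Mdm2* no longer passed, at 0.09 (edgeR adjusted p = 0.118), whereas *E2f2* passed at 0.12 (edgeR adjusted p = 0.0105). The fold changes of other called genes shrank in that fit. *Cdkn2a* came to -0.19, *Cdkn1a* to -0.22, *Trp53* to -0.14 and *E2f1* to -0.08, and *Rb1*, *Rbl1* and *Rbl2* to 0.18, 0.17 and 0.18.

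With length and GC content corrected together, an alternative added after the data were seen, 5 of the 10 genes were called, against 39.1% of all tested genes. *Rb1* and *Rbl1* stayed higher, at 0.16 (edgeR adjusted p = 0.000331) and 0.14 (edgeR adjusted p = 0.000665). *Trp53*, *Cdkn1a* and *Cdkn2a* stayed lower, at -0.16, -0.21 and -0.10 (edgeR adjusted p = 0.000579, 1.80e-05 and 0.034). The median over all tested genes was -0.0402 in this fit, so these values are not centered on 0. *E2f1* fell short at -0.07 (edgeR adjusted p = 0.0646), as did *Mdm2* and *Rbl2*, each at 0.08 (edgeR adjusted p = 0.179 and 0.348).

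**Figure D3:**
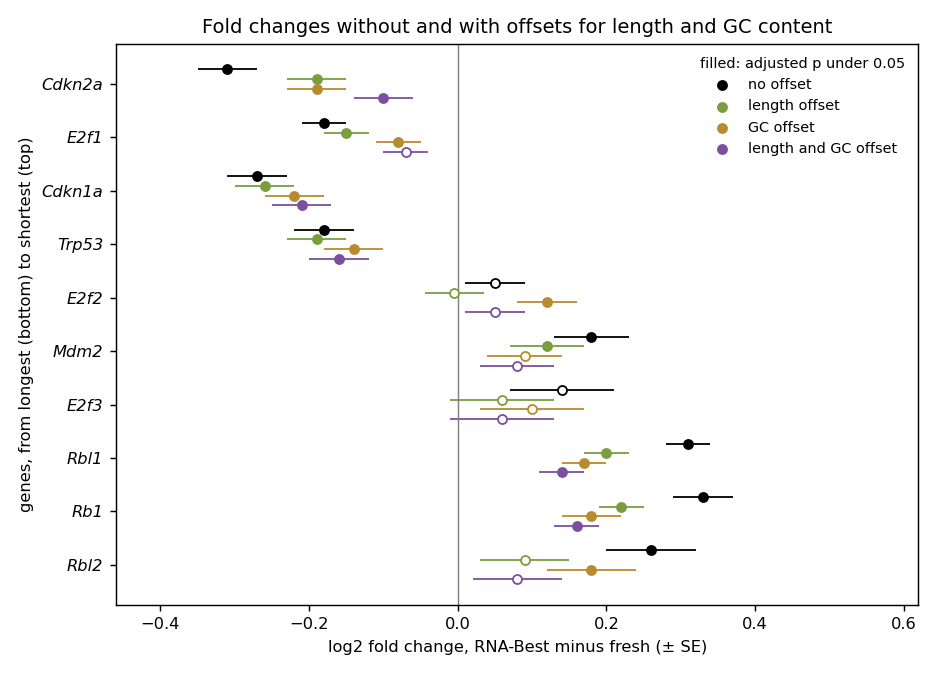
Log2 fold change and SE of each gene with no offset and with offsets for exonic length, for GC content and for both. Filled points have an adjusted p under 0.05. Trp53, Cdkn1a, Cdkn2a, Rb1 and Rbl1 stay filled in all 4 fits, and E2f2 changes sign with the length offset, to -0.00466.

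Ratios of genes within a library do not depend on its total. The log2 ratio of *Mdm2* to *Trp53* was -1.23, -1.22 and -1.13 in fresh and -0.92, -0.75 and -0.83 in RNA-Best libraries. The groups did not overlap, and their means differed by 0.36 (exact permutation test, two-sided, p = 0.1, adjusted p = 0.167 over 5 ratios). Since *Mdm2* was higher and *Trp53* lower in RNA-Best without overlap, this ratio had to separate, and its p adds nothing to their levels. The ratios were not corrected for length or GC content. With 3 libraries against 3 no smaller p than 0.1 can be reached. The log2 ratio of *Cdkn1a* to *Trp53* was 0.15, 0.14 and 0.30 in fresh and 0.11, 0.07 and 0.09 in RNA-Best libraries, a difference of -0.11 (same test, exact p = 0.1, adjusted p = 0.167), and without fresh replicate 3 the difference was -0.06. *E2f1* over *E2f3* fell from a mean of 3.21 ± 0.017 to 2.92 ± 0.13 on the log2 scale (SD, n = 3 each, exact permutation p = 0.1, adjusted p = 0.167), without overlap.

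The shares of the pocket protein genes within their family overlapped between the groups, and with 3 libraries against 3 no share could have reached a p under 0.1. On counts per kb *Rbl1* made up 53.7% ± 1.1 of the family in fresh and 53.8% ± 1.1 in RNA-Best libraries (SD, n = 3 each, exact permutation p = 1). *Rb1* made up 37.1% ± 0.73 and 37.5% ± 0.091 (SD, n = 3 each, exact permutation p = 0.6), and *Rbl2* 9.23% ± 0.35 and 8.70% ± 1.0 (SD, n = 3 each, exact permutation p = 0.4). For *Rbl2* the overlap came from RNA-Best replicate 3 (9.89%), since replicates 1 and 2 (7.93% and 8.28%) lay below all fresh libraries, and without replicate 3 its share differed by -1.12 points. The log2 ratios of *Rbl1* to *Rb1* and of *Rbl1* to *Rbl2* overlapped too, with means of 0.53 and 2.21 in fresh and 0.51 and 2.30 in RNA-Best libraries (exact permutation p = 1 and 0.5). For *Rbl1* to *Rbl2* the difference was 0.21 without RNA-Best replicate 3, and the groups then did not overlap.

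In the activator E2F family the shares did separate. This was fixed in part by the levels, with *E2f1* lower and *E2f2* higher in RNA-Best without overlap. *E2f1* made up 75.5%, 75% and 75.6% in fresh and 71.7%, 72.3% and 72.1% in RNA-Best libraries, a difference of -3.35 percentage points. *E2f2* gained 2.54 points, from 19.9% ± 0.35 to 22.4% ± 0.29 (SD, n = 3 each), and *E2f3* gained 0.815 points, from 4.73% ± 0.052 to 5.55% ± 0.46 (SD, n = 3 each). Each difference had an exact permutation p of 0.1, the smallest possible, and an adjusted p of 0.2 over 6 shares. After thinning the *E2f3* share differed by 0.518 points (exact permutation p = 0.2). *E2f1* is the shortest of the family, with 3154 exonic bases against 4882 and 5429.

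**Figure D4:**
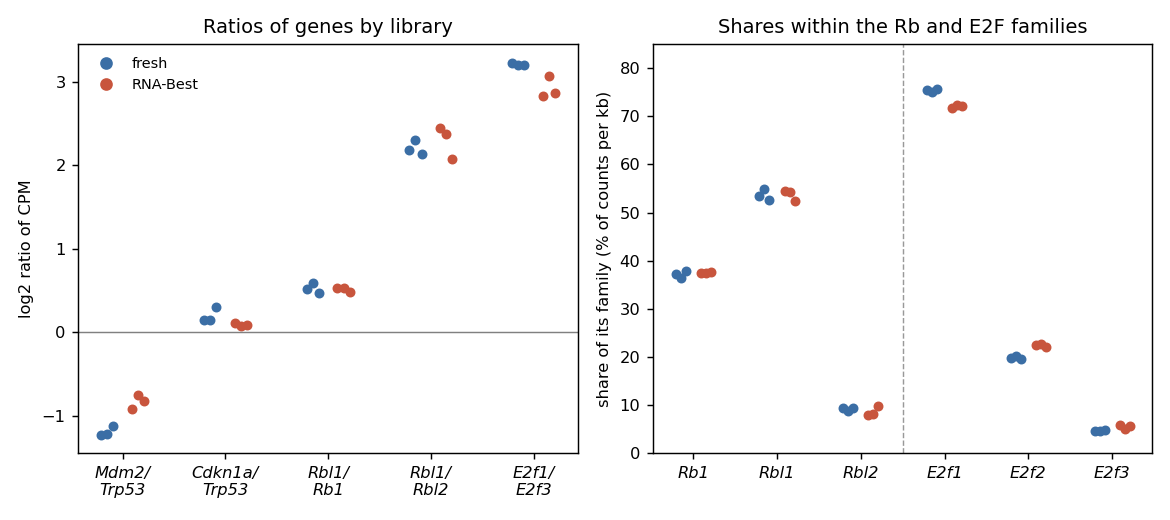
Left, log2 ratio of CPM for 5 pairs of genes in each fresh and RNA-Best library. Right, share of each gene in its family in percent of counts per kb, with the pocket proteins left and the E2Fs right of the dashed line. The groups are apart for Mdm2/Trp53, Cdkn1a/Trp53, E2f1/E2f3 and the E2F shares, and overlap for all pocket protein measures, with RNA-Best replicate 3 alone making the overlap for the Rbl2 share and for Rbl1/Rbl2.

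Other genes of the pathway were grouped into lists and described by counts beside the 50.8% of all genes called and a median of -0.0074 for the log2 fold change over all tested genes. Of 10 p53 family members and regulators 9 were tested, and 7 were higher and 0 lower in RNA-Best, with a median of 0.19. The largest changes were those of *Atm*, the kinase that signals DNA breaks to p53, from 30 ± 3.51 to 66.6 ± 1.95 CPM (SD, n = 3, log2 fold change 1.09), and of *Mdm4*, a relative of *Mdm2* that blocks p53, from 103 ± 5.22 to 182 ± 4.30 CPM (SD, n = 3, 0.81). The smallest called were *Chek2*, a checkpoint kinase, and *Ppm1d*, a phosphatase that turns p53 signaling off, at 0.13 and 0.14. The list is long in sequence, with a median of 7766 exonic bases. With length and GC content corrected 4 were higher and 0 lower, against 14.6% and 24.5% of all tested genes. *Trp63* had 1 count in all libraries together and was not tested.

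Among 22 p53 target genes 20 were tested, and 4 were higher and 5 lower, 45.0% of those tested and thus near the share of all genes. *Polk*, a DNA polymerase, and *Trp53inp1*, a p53 cofactor, were higher at 0.48 and 0.36. The cell death genes *Bax* and *Bbc3* were lower at -0.37 and -0.34, from 124 ± 0.924 to 95.6 ± 3.92 CPM and from 29.0 ± 0.612 to 23.4 ± 1.14 CPM (SD, n = 3). *Pmaip1* and *Fas*, with 4 and 17 counts in all, were not tested.

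Of 13 G1 cyclins, kinases and inhibitors 10 were tested, and 2 were higher and 3 lower. *Ccne2*, an E2F-regulated partner of Cdk2, and *Cdkn1b*, the inhibitor p27, were higher at 0.28 and 0.18. *Cdkn2d* and *Cdkn2c*, inhibitors of the same family as p16INK4a, were lower at -0.35 and -0.19. They have 1574 and 2686 exonic bases. *Ccnd2*, *Cdk6* and *Cdkn1c* had 3 to 6 counts in all and were not tested. With the length offset 2 were higher and 5 lower, against 15.6% and 25.2% of all tested genes. With the GC offset 0 were higher and 4 lower, against 21.9% and 26.2% of all.

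All 13 of the other E2F, DP and MuvB genes were tested, and 7 were higher and 3 lower. The repressor *E2f7* and the MuvB subunit *Lin54*, which together with p130 forms DREAM, were higher at 0.42 and 0.35. The MuvB subunit *Lin37* and the repressor *E2f6* were lower at -0.22 and -0.20. Of 23 S phase genes regulated by E2F, all tested, 5 were higher and 8 lower, with a median of -0.05. *Mybl1*, a Myb family factor, and *Pola1*, the catalytic subunit of DNA polymerase alpha, were higher at 0.41 and 0.27. *Mcm5*, a subunit of the replicative helicase, and *Cdt1*, which loads it, were lower at -0.28 and -0.22. Their summed level was 5419.6 to 5499.6 CPM in fresh and 5315 to 5427 CPM in RNA-Best libraries, with overlapping ranges. With length and GC content corrected 1 was higher and 12 lower, while 14.6% of all tested genes were then higher and 24.5% lower. The list median was then -0.08, against -0.0402 over all tested genes.

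**Figure D5:**
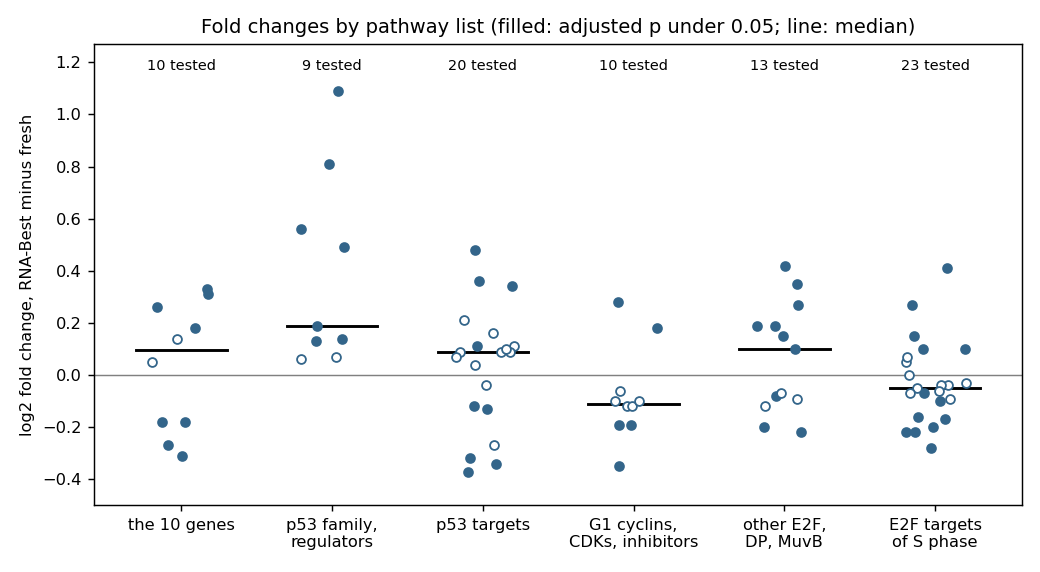
Log2 fold change (RNA-Best minus fresh) of every tested gene in 6 lists, 1 point a gene, filled where the adjusted p was under 0.05, with the list median as a line. The p53 regulators lie at or above 0.06, with Atm at 1.09 the highest, and the other lists hold genes on both sides of 0.

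Across the 6 libraries the log2 CPM of *Rb1* was most like that of *E2f7*, *Trp53inp1* and *Polk* among 94 other listed genes, with Pearson correlations of 0.993, 0.989 and 0.98. That of *E2f1* was most like *Cdkn2d*, *Tyms* and *Cga* (0.992, 0.989 and 0.989), and that of *Trp53* most like *Gata2*, *Nr5a1* and *Pitx1* (0.952, 0.949 and 0.94). These values take in the difference between the groups and the depth that goes with it, so they describe the same contrast again.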

How the data were processed

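The mRNA libraries analysed were 3 of fresh and 3 of RNA-Best-preserved LβT2 cells. Per the submitters' processing notes and the study's methods, the authors aligned single reads to GRCm38 (mm10) with STAR 2.5.1b and counted them per gene of GENCODE M8 with featureCounts 1.5.0-p1. The deposited values are estimated counts, not scaled for library size, and by library 9.36% to 16.3% were not whole (tolerance 0.001). Settings for strand and shared reads are not given in the sources used here, so values of paralogs, pseudogenes and overlapping genes are uncertain. There were 4909418 to 47438746 counts per library, and the limit for a gene without reads was set at 3 counts, covering counting error only.

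Counts were rounded and tested in R 4.3.3 with edgeR 4.0.16 (TMM factors 0.994 to 1.01, filterByExpr with a minimum count of 10, quasi-likelihood test, Benjamini-Hochberg over all genes). The study used voom, tried here as an alternative without the fold change threshold of the study, which none of the 10 genes would reach. Standard errors are the absolute log2 fold change over the square root of F. Symbols, positions, exonic length and GC content came from GENCODE M21 on GRCm38, a later release than the authors used. It matched 46574 of 47069 genes, 46488 with a GC content. Exonic length merges the exons of all transcripts of a gene, and GC content is that of the longest transcript. Offsets were loess fits of each library with a span of 0.5. Thinning drew reads without replacement. Ratios and shares were compared by exact permutation tests in Python 3.11.15 with scipy 1.17.1. The fit was tested on simulated data. Alternatives were DESeq2 1.42.0 (Wald test, and its size factors in edgeR), limma 3.58.1 voom, no filter, column totals, offsets, thinning, the replicate block and leaving out single libraries. Text names all 10 genes and, from the lists, untested genes, those most alike in pattern and the called genes with the 2 largest and 2 smallest log2 fold changes. Members and lists were chosen with earlier results of these data known.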

Additional observations from a re-analysis of the deposited data

How the results depend on the processing

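The number of the 10 genes called was 8, and 7 to 9 with single libraries left out, with 7 when RNA-Best replicate 3 and 9 when RNA-Best replicate 2 was left out. It was 5 with length and GC content corrected together, where 4 p53 regulators and 39.1% of all tested genes were called. Of all genes 7479 were called, 5242 after thinning, 5955 with DESeq2's Wald test, 7459 with voom and 7637 with no filter. With no filter 3256 were higher and 4381 lower, and the split was 2292 to 3715 with the length offset, 2252 to 3732 with the block and the length offset and 2158 to 3609 with both offsets, against 3828 to 3651.

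Single genes changed as follows. *Mdm2* did not pass with the GC offset (0.09), with both offsets (0.08) or after thinning (0.17). *Rbl2* did not pass with the length offset (0.09), with both (0.08) or after thinning (0.22), and ranged from 0.15 to 0.33 with single libraries left out. *E2f1* did not pass with both (-0.07). *E2f2* passed with the GC offset (0.12) and turned to -0.00466 with the length offset. *E2f3* ranged from 0.12 to 0.18 with single libraries left out, and was 0.06 with the length offset or with both and 0.04 after thinning. The share of *Rbl1* among pocket proteins differed by -0.013 points after thinning and by -0.34 to 0.77 with single libraries left out, that of *Rbl2* by -1.12 to -0.143, that of *Rb1* by 0.0115 (without fresh replicate 2) to 0.741 (without fresh replicate 3), the *Rbl1* to *Rb1* ratio by -0.04 to 0.02 and *Rbl1* to *Rbl2* by 0.02 (without RNA-Best replicate 1) to 0.21. After thinning the *Cdkn1a* to *Trp53* ratio differed by -0.16 (exact permutation p = 0.4). The cause was not tested. *Trp53*, *Cdkn1a*, *Cdkn2a*, *Rb1* and *Rbl1* kept direction and call under all 18 alternatives to the fit. Their sizes varied, for *Trp53* from -0.23 to -0.13, for *Cdkn1a* from -0.32 to -0.21 and for *Cdkn2a* from -0.36 to -0.10. *Rb1* ranged from 0.16 to 0.35 and *Rbl1* from 0.14 to 0.35.

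Deviations from the group means of same-numbered libraries were not related (r of -0.00626, 0.00938 and -0.00752 across genes), and the replicate numbers were not taken as pairs. With the replicate block 7472 genes and 8 of the 10 were called. With the block and the length offset *Mdm2* (0.12) and *Rbl2* (0.05) did not pass, and with the block and the GC offset *Mdm2* (0.09) and *Rbl2* (0.14) did not, while *E2f2* (0.14) did. *E2f3* and *Rbl2* had the fewest reads of the 10 in the shallowest library, 96 and 171. After thinning it was *Mdm2* and *Rbl2* that lost their call.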
